A study of Homo sapiens with 6 samples.

Results

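Splicing factor genes were examined as targets of CELF1 (also called CUGBP1) in RNA immunoprecipitation followed by sequencing (RIP-Seq) of 2 human melanoma cell lines. The genes were those annotated as protein-coding with symbols starting SRSF, HNRNP, SF3A, SF3B or U2AF, and 49 of 20176 protein-coding genes met this rule. They comprised 12 SR genes (SRSF), 25 hnRNP genes (HNRNP), 9 SF3A and SF3B genes and 3 U2AF genes. RNA recovered with an anti-CUGBP1 antibody (the IP) came from SK-Mel-103 in 1 sample (replicate 1) and from UACC-62 in 2 samples (replicates 1 and 3), each with an input from the same line and replicate. Both are established melanoma lines, no other treatment is named for these samples, and no unrelated-antibody control was used here, so that every value sets IP reads against input reads. Nothing in the labels says that the replicates were separate cultures, and their spread may be technical.

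SR proteins and hnRNP proteins bind pre-mRNA and act, often in opposite directions, on the choice of splice sites. SF3A and SF3B proteins are parts of the U2 snRNP, which recognises the branch point, and the U2AF heterodimer recognises the adjoining polypyrimidine tract and the 3′ splice site. Many SR and hnRNP genes control their own mRNA through alternative exons that lead to nonsense-mediated decay. CELF1 is itself an RNA-binding protein of the nucleus and the cytoplasm, known for GU-rich elements in 3′ UTRs and for regulating splicing.

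Reads were counted by the authors in bins of 20 bp, and only bins that passed their peak caller were listed. The 3 lists held 780750 to 862731 bins, 10958459 to 14436573 IP reads and 8453517 to 10161917 input reads. In the input, the melanocyte lineage gene SOX10 had 864 to 2115 exonic reads in all samples. The other lineage genes had few or no listed input reads in SK-Mel-103. Input reads are known only in bins that passed, so a count of 0 does not show that the RNA was absent. MITF had 18 reads there against 6034 and 5000 in UACC-62, and MLANA had 18 against 826 and 926. TYR, DCT and S100B had 0 there, against 1838 and 1157, 207 and 75, and 4677 and 3709 in UACC-62. PMEL and TYRP1 had no listed exonic reads in any sample. The epithelial, leukocyte and fibroblast markers and the endothelial marker CDH5 had at most 3 listed input reads each. PECAM1 was also chosen as an endothelial marker but gave no value. With 1 and 2 samples per line no test was run, and each statement below describes these samples. Values are given in the order SK-Mel-103 first, then UACC-62 replicates 1 and 3. Of the 49 genes, 48 had at least 1 listed bin and U2AF1L4 had none.

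The strongest 3′ UTR bins among the genes named by the rule given with the processing are shown first. Genes outside that rule, such as HNRNPDL, were not considered for this list. Each line gives the 20 bases of the GRCh37 reference on the transcript strand for the 3′ UTR bin of that gene with the highest IP count in its lowest sample, with the CELF1-type 5-mers UGUGU and UGUUU in capitals where they occur.
HNRNPA1, chr12:54678601-54678620, + strand: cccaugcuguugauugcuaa
HNRNPK, chr9:86583101-86583120, - strand: ccaaauaaauaaaacaccca
HNRNPA3, chr2:178084741-178084760, + strand: agauaauuUGUGUGUUUgca
HNRNPA2B1, chr7:26231501-26231520, - strand: uguagaguuaagaagcuguu
SRSF1, chr17:56082441-56082460, - strand: guuaucuuaccuggggaagu
SRSF3, chr6:36570021-36570040, + strand: uugaacuuuuaguuaugcac
SRSF9, chr12:120899501-120899520, - strand: ugagucggcccauucUGUUU
HNRNPD, chr4:83275181-83275200, - strand: uaugacguugggucccucug
HNRNPH1, chr5:179041181-179041200, - strand: aauccuccuuuuaaaaacug
SRSF2, chr17:74731021-74731040, - strand: guaauuuagugaggugaacg

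The HNRNPA1 bin held 1167, 607 and 904 IP reads over 438, 365 and 376 input reads. The HNRNPK bin held 553, 886 and 887 IP reads over 100, 194 and 162 input reads. Both genes encode abundant hnRNPs, HNRNPA1 a repressor of splice sites and HNRNPK a KH-domain protein that binds C-rich RNA, and neither bin carried UGUGU or UGUUU. The HNRNPA3 bin, with 357, 135 and 136 IP reads over 135, 31 and 41 input reads, carried both 5-mers in overlap. The SRSF1 bin, from the mRNA of the founding SR protein, held 492, 225 and 388 IP reads over 295, 372 and 284 input reads, so that raw IP reads exceeded input reads in all but UACC-62 replicate 1. The SRSF9 bin, with 140, 110 and 199 IP reads over 199, 361 and 365 input reads, was below its input in every sample. The SRSF3 bin was also below it in every sample, at 263, 123 and 301 IP reads over 348, 334 and 396. The SRSF2 bin held 125, 87 and 117 IP reads, and its input was 74 and 93 reads in UACC-62. The HNRNPD bin held 345, 93 and 172 IP reads over 234, 139 and 166 input reads, and the HNRNPH1 bin 131, 94 and 120 over 53, 135 and 116. These are raw reads, before scaling to the totals of the lists. In HNRNPA2B1, a close relative of HNRNPA1, the bin held 319, 333 and 395 IP reads but 413 input reads in SK-Mel-103 against 25 and 15 in UACC-62. The next bin towards higher coordinates, chr7:26231521-26231540, held 456, 414 and 564 input reads, and the bin on the other side, chr7:26231481-26231500, held 31, 56 and 60.

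A bin counted as a peak when its p-value was under 0.05 and it held over 30 IP reads, and a common peak was the same bin on the same strand in all 3 samples. Of the 49 genes, 28 had a common peak, against 13.2% of all protein-coding genes with a listed bin. They were 6 SR genes, 18 hnRNP genes, 3 of the SF3A and SF3B genes (SF3A3, SF3B1 and SF3B6) and U2AF2. The count of reads in a bin grows with the abundance of the mRNA. Among genes with at least 1000 exonic input reads in each sample, 25 of 29 splicing factor genes had a common peak against 72.6% of 1323 genes, with 6 of 8 SR genes and 15 of 16 hnRNP genes. This floor does not match the genes for abundance above it.

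The 28 genes held 445 common peaks, 125 in SR genes and 314 in hnRNP genes. SRSF1 alone had 71, all in the 3′ UTR, and HNRNPK had 66, of which 51 lay in the 3′ UTR and 15 in the coding region. HNRNPU, which encodes the nuclear scaffold protein SAF-A, had 42, HNRNPA1 had 40, HNRNPA2B1 had 26, and SRSF3 and HNRNPC had 25 each. SRSF2 had 19 and SRSF9 had 6, while SRSF6 and SRSF7 had 2 each. No common peak was found in SRSF4, SRSF5, SRSF8, SRSF10, SRSF11 or SRSF12. In SRSF4 and SRSF12 no bin passed 30 IP reads in any sample, but SRSF10 had 14, 0 and 14 peaks and SRSF11 had 19, 0 and 5, so that UACC-62 replicate 1 alone kept these from being common. Without that replicate, 10 SR genes and 19 hnRNP genes had a peak common to the remaining samples, and without UACC-62 replicate 3 the counts stayed at 6 and 18.

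**Figure D1:**
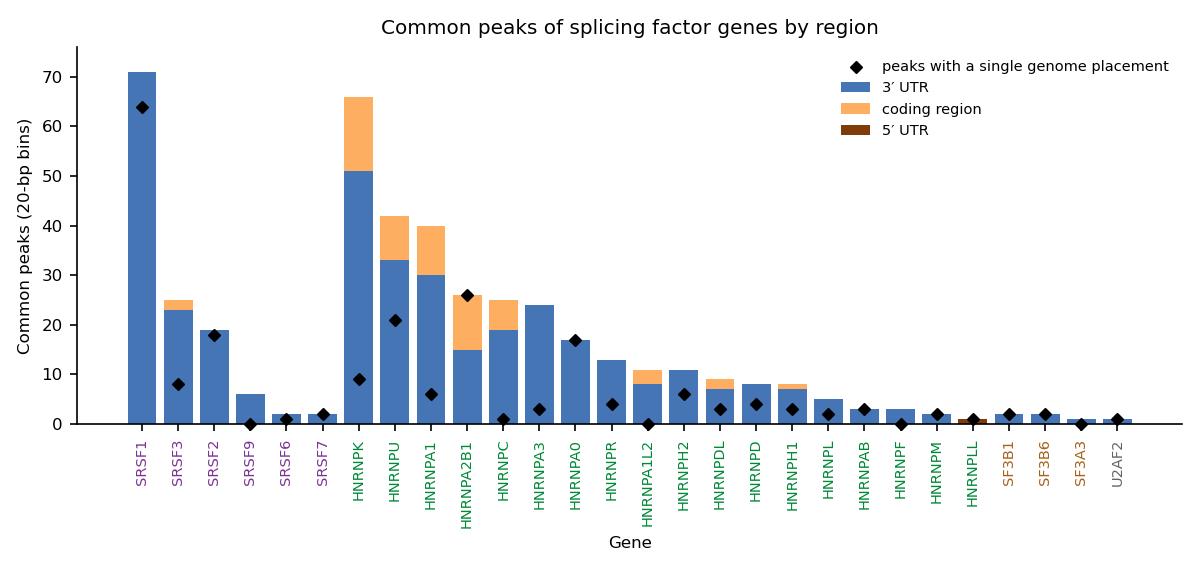
Bars give the number of common peaks (20-bp bins passing in all 3 samples) per gene, coloured by region, and diamonds give the number whose surrounding window has a single placement in the genome. Gene names are coloured by class (SR purple, hnRNP green, SF3A and SF3B brown, U2AF grey). SRSF1 keeps 64 of 71 peaks as single placements, whereas HNRNPK keeps 9 of 66 and HNRNPA1 keeps 6 of 40.

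Many of these genes have processed pseudogenes and close paralogs, and a read from such a stretch can be placed in more than one copy. The authors' alignment allowed up to 20 placements per read. Of the 445 common peaks, 209 had a single placement when a window of 40 nt was searched against the genome with up to 2 mismatches. The share was 93 of 125 in SR genes and 111 of 314 in hnRNP genes. None of the 11 peaks of HNRNPA1L2, an intronless copy of HNRNPA1, was singly placed, nor were the 6 of SRSF9, the 3 of HNRNPF or the 1 of SF3A3. With singly placed peaks only, 24 of the 28 genes kept a common peak, 5 of them SR and 16 hnRNP. All 26 peaks of HNRNPA2B1 and all 17 of HNRNPA0, a single-exon hnRNP gene, were singly placed. The 140 annotated pseudogenes of these genes held few listed reads themselves, 151, 51 and 131 IP reads in 8 of them.

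Most common peaks of both classes lay in 3′ UTRs. In SR genes 123 of 125 peaks lay in 3′ UTRs (98.4%, Wilson 95% interval 94.4 to 99.6%) and 2 in the coding region, both in SRSF3. SRSF1 alone gave 71 of the 123. In hnRNP genes 256 of 314 lay in 3′ UTRs (81.5%, 76.9 to 85.4%) and 57 in coding regions, spread over 8 genes and led by HNRNPK, HNRNPA2B1, HNRNPA1 and HNRNPU. Over all splicing factor genes the 3′ UTR share was 86.5% (83.0 to 89.4%), against 84.5% of the common peaks of all protein-coding genes. The intervals reflect counting alone, while bins next to each other in a gene share reads' sources and are not independent. The 1 peak in a 5′ UTR belonged to HNRNPLL at chr2:38830021-38830040, with 31, 69 and 101 IP reads over 0, 2 and 4 input reads. No common peak fell in an intron of a splicing factor gene.

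Enrichment was then measured per gene as log2 IP over input, summed over the listed exonic bins and scaled to the total of each list. A value of 0 means the same share of the IP and of the input list, and genes needed at least 50 exonic reads in each sample, which 45 of the 49 reached (SRSF12, HNRNPA1L3, HNRNPUL2-BSCL2 and U2AF1L4 did not). The medians of the SR genes were -0.50, -1.08 and -0.74. The medians of the hnRNP genes were -0.74, -1.10 and -0.85. Both classes lay below the median of all genes, which was -0.28, -0.71 and -0.49. Common peaks could occur without a gene-wide excess over input, as in SRSF1, which had 71 and was at -0.14, -1.05 and -0.29. The signs were not counted separately for genes with and without a common peak. Of the 45 genes, 36 were below 0 in all 3 samples, against 54.9% of 7472 genes, and only SRSF8 and HNRNPA0 were above 0 in all 3, against 25.5%. Among genes with at least 1000 exonic input reads the share below 0 was 69.3%, and 23 of 29 splicing factor genes were below 0. None of the 29 was above 0 in all 3, against 20.1%.

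The median of SR genes exceeded that of hnRNP genes by 0.23 in SK-Mel-103 and by 0.02 and 0.11 in UACC-62 (mean 0.07 ± 0.06 SD, n = 2). Restricted to bins with more than 30 IP reads, the SK-Mel-103 difference turned to -0.07 and the UACC-62 mean to -0.53, over 6 SR and 17 hnRNP genes. The classes overlapped throughout, SR genes ranging from -1.20 to 1.01 and hnRNP genes from -1.86 to 1.10 in SK-Mel-103.

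SRSF8, a retrocopy-derived relative of SRSF2, was the highest SR gene at 1.01, 0.63 and 0.78 (UACC-62 mean 0.70 ± 0.11 SD, n = 2). HNRNPA0 was the highest hnRNP gene at 1.10, 0.90 and 1.23. Their annotated 3′ UTRs cover 3153 and 7501 nt. SRSF2 followed at 0.13, -0.17 and -0.30, HNRNPA1 at 0.54, -0.07 and 0.32, HNRNPA3 at -0.018, 0.32 and 0.22 and HNRNPK at -0.07, 0.12 and -0.0033. SRSF1 was at -0.14, -1.05 and -0.29, SRSF10 at -0.31, -1.08 and -0.60, SRSF5 at -0.50, -0.84 and -0.74 and HNRNPD, the AU-rich element binding protein AUF1, at 0.12, -0.16 and -0.20. These were near or below input in at least 1 sample.

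At the low end of the SR genes, SRSF9 was at -1.20, -1.67 and -1.23, SRSF3 at -0.39, -1.51 and -0.65 and SRSF4 at -1.03, -1.05 and -1.47. SRSF3 thus ranked low through UACC-62 replicate 1 alone. In the hnRNP class HNRNPH1, which binds G-rich RNA, was at -1.20, -2.27 and -1.76. The HNRNPC-like genes HNRNPCL1 and HNRNPCL2 were lower still in all but UACC-62 replicate 3, but rested on 11 to 38 IP reads each. Leaving out HNRNPCL1, HNRNPCL2 and HNRNPA1L2 moved the hnRNP median only from -0.98 to -0.92 in UACC-62. HNRNPA1L3 was left out as well but had not reached the read minimum.

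**Figure D2:**
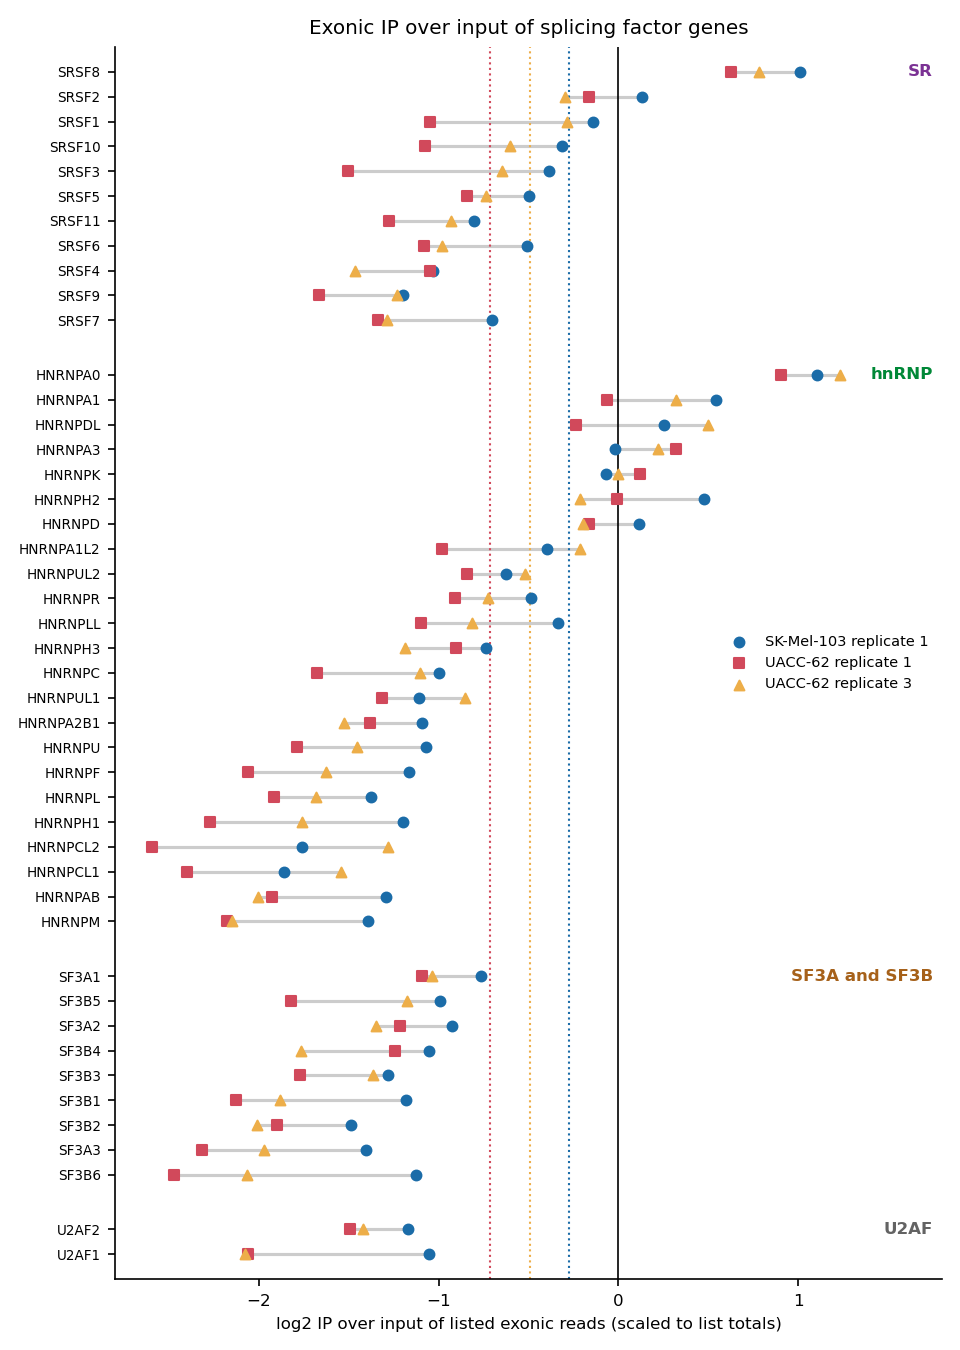
Points give the exonic log2 IP over input of each of the 45 genes in each sample, grey bars span the 3 samples, and dotted lines mark the medians of all protein-coding genes in the sample of that colour. SRSF8 and HNRNPA0 lie above 0 in all 3 samples, and all SF3A, SF3B and U2AF genes lie to the left of 0 and of the dotted lines.

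The constitutive 3′ splice site factors were the most depleted group. All 9 SF3A and SF3B genes were below 0 in all 3 samples, with medians of -1.13, -1.82 and -1.77, and so were U2AF1 and U2AF2. SF3B1, the largest SF3B subunit, which contacts the branch point region, was at -1.18, -2.13 and -1.88 with 3062, 1463 and 2459 exonic IP reads. SF3B6, which encodes the small branch point protein p14, ranged from -1.13 in SK-Mel-103 to -2.47, and SF3A3 from -1.40 to -2.32. SF3A1 was the highest of the group at -0.77, -1.09 and -1.04. SF3A2, SF3B2, SF3B3, SF3B4 and SF3B5 lay between -0.92 and -2.01. U2AF2, the subunit that binds the polypyrimidine tract, was at -1.17, -1.49 and -1.42, and U2AF1, which reads the splice site itself, at -1.05, -2.06 and -2.08. In SK-Mel-103 the median SF3A or SF3B gene stood at the 14.8 percentile of all genes, in UACC-62 at 14.8 and 10.1.

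SK-Mel-103 gave the higher value for most of these genes. It was above both UACC-62 replicates for 36 of 45 genes, among them all 11 SR genes and all 9 SF3A and SF3B genes, and for 14 of 23 hnRNP genes. The same held for 60.1% of all genes, whose SK-Mel-103 value exceeded the UACC-62 mean by a median of 0.31. With a single SK-Mel-103 sample, a difference between lines cannot be told apart from one between samples.

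The gene-wide values hid a difference between the 3′ UTR and the coding region. For 38 genes with 50 reads in both regions in each sample, the 3′ UTR was above the coding region in all 3 samples in 27, against 56.8% of 4533 genes. These were 6 of 9 SR genes, 17 of 21 hnRNP genes, 4 of 7 SF3A or SF3B genes and not U2AF2. Coding regions of splicing factor genes were below 0 in all 3 samples in 41 of 43 genes, against 71.8% of all genes, and above 0 in none, against 9.48%. In 3′ UTRs, 10 of 40 genes were above 0 in all 3 samples, against 30.8% of all genes, and 27 were below 0 against 51.6%.

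The 3′ UTRs above 0 in all samples were those of 8 hnRNP genes (HNRNPA0, HNRNPA1, HNRNPA3, HNRNPD, HNRNPDL, HNRNPH2, HNRNPK and HNRNPUL2) and of SRSF5 and SRSF8. In HNRNPK the 3′ UTR was at 0.57, 0.93 and 0.73 and the coding region at -1.24, -1.99 and -1.46. The gap between the regions was 1.81, 2.92 and 2.19, in a gene whose exonic value as a whole was near 0. HNRNPA1 had 3′ UTR values of 0.96, 0.50 and 0.72 against coding values of -0.84, -1.88 and -0.50. HNRNPA3 had 0.16, 0.59 and 0.56 against -1.62, -1.44 and -1.42. Several placements were found for 57 of 66 common peaks in HNRNPK, 34 of 40 in HNRNPA1 and 21 of 24 in HNRNPA3. The regional values were not recomputed on singly placed bins. SRSF5 was the SR gene with the widest gap, its 3′ UTR at 0.60, 0.68 and 0.68 and its coding region at -0.95, -1.40 and -1.21. HNRNPUL2, an hnRNP U relative without a common peak, had gaps of 1.96, 2.06 and 1.73.

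The opposite order in all 3 samples was found in HNRNPAB, HNRNPM and U2AF2, and its share over all genes was not counted. HNRNPAB had 3′ UTR minus coding differences of -0.50, -0.25 and -0.34. Those of HNRNPM (-0.23, -0.25 and -0.016) and U2AF2 (-0.54, -0.0042 and -0.027) were also negative in all 3 samples, but close to 0 in at least 1. Several other genes did not keep an order, among them SRSF2, with differences of -0.14, 0.51 and -0.40. By class, the SR minus hnRNP difference of the 3′ UTR medians was -0.20 in SK-Mel-103 and -0.24 ± 0.09 (SD, n = 2) in UACC-62. For the coding regions it was 0.36 and 0.12 ± 0.13, the UACC-62 value being within the spread of the replicates. Across the 45 genes log2 IP over input rose with 3′ UTR length, with Spearman's rho of 0.54, 0.48 and 0.53, as a description over genes that share libraries. Over all 7472 genes rho was 0.44, 0.46 and 0.46.

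**Figure D3:**
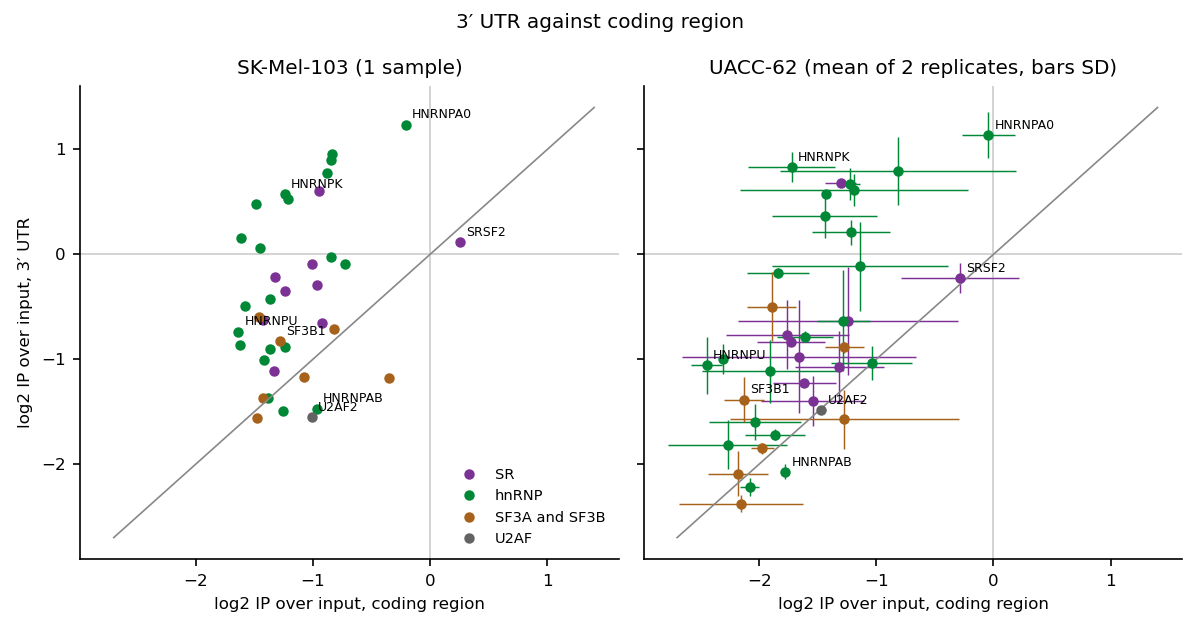
Each point is a gene with the read minimum in both regions, placed by the log2 IP over input of its coding region (horizontal) and 3′ UTR (vertical), with SK-Mel-103 on the left and the mean and SD of the 2 UACC-62 replicates on the right. Points above the diagonal have the higher value in the 3′ UTR, as 27 of 38 genes did in all samples, and HNRNPAB lies below it in both panels.

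Along the 3′ UTR of the canonical transcript, most peaks lay before the midpoint. Within 500 nt of the stop codon lay 51.5%, against 25.7% for all genes. Of 379 common peaks on the 3′ UTR of the canonical transcript, 80.5% came before its midpoint, with 81.4% in SR and 80.4% in hnRNP genes, against 57.2% for all genes. Input reads had the same slant, 75.9, 77.1 and 77.9% of the input in these 3′ UTRs lying there against 61.2 to 61.4% for all genes. Relative to input the order was the reverse. The stretch after the midpoint exceeded the one before it in log2 IP over input in all 3 samples in 19 of 31 splicing factor genes (11 of 16 hnRNP and 4 of 9 SR), against 44.7% of 3656 genes, and the reverse held in 3 (SRSF2, SRSF10 and HNRNPA3), against 16.3%.

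SRSF1 showed both patterns in one mRNA. Its 3′ UTR of 4490 nt held 56 of its 66 canonical peaks before the midpoint, and both IP and input reads dropped after the 1701 to 1800 nt step, where input fell from 533, 609 and 417 reads to 49, 93 and 72 in the next 100 nt. In the last 500 nt IP reads outnumbered input, with 994, 864 and 771 IP reads over 235, 264 and 151 input reads. The log2 IP over input of that end was 1.70, 1.55 and 1.65, against -0.16, -1.13 and -0.32 for the rest of the 3′ UTR. Single 100-nt steps before 1800 nt also had scaled IP above input, among them 301 to 400 nt in SK-Mel-103 (79.3 against 44.5 RPM). The last 500 nt were singled out after the profile had been seen.

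HNRNPK rose towards its end more gradually. In the step from 901 to 1000 nt after its stop codon it had 1018, 1324 and 1300 IP reads over 257, 373 and 352 input reads, and between 101 and 200 nt it had 565, 548 and 658 over 439, 599 and 520. Its last 500 nt were at 1.30, 1.70 and 1.27 and the rest at 0.06, 0.35 and 0.33. HNRNPD had the highest end of the 13 measured in each sample, at 1.86, 2.42 and 2.54 from 521, 178 and 188 IP reads over 110, 29 and 19 input reads, against 0.38, 0.10 and -0.02 for the rest. Over the 13 splicing factor genes that could be measured this way the end was higher in all 3 samples in 8 (3 of 4 SR, 4 of 8 hnRNP, and SF3A3), against 43.0% of 1959 genes. It was lower in all 3 in SRSF2 alone, against 15.9%.

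**Figure D4:**
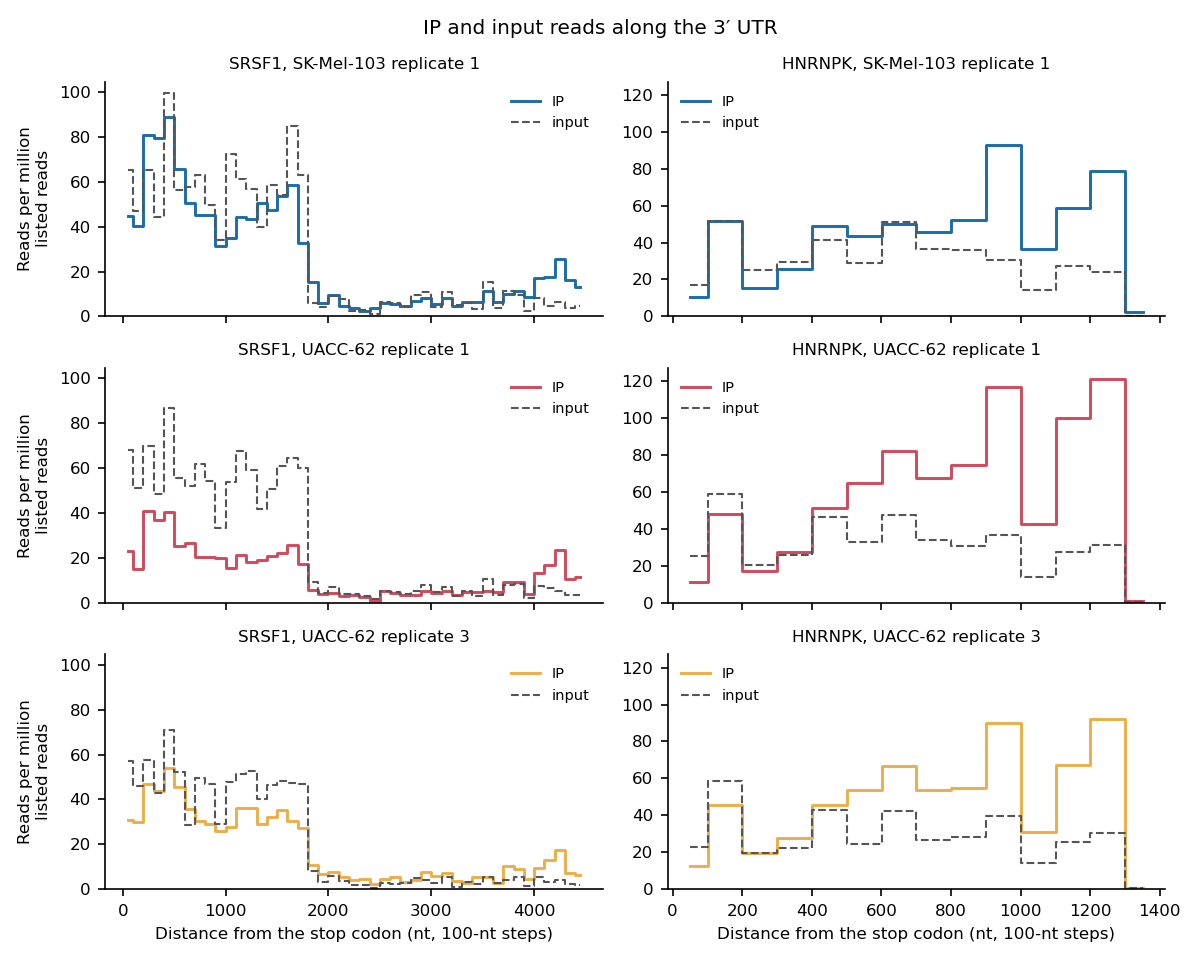
Lines give IP (solid) and input (dashed) reads scaled to the list total (RPM) in steps of 100 nt from the stop codon along the 3′ UTR of SRSF1 (left) and HNRNPK (right), with 1 row per sample and a linear scale shared within each column. In SRSF1 both lines drop after 1800 nt and IP runs above input in the last 500 nt, and in HNRNPK the distance between IP and input widens towards the end.

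GU-rich 5-mers were sparse in the peaks. UGUGU was found on the transcript strand in 21 of 385 common 3′ UTR peaks of splicing factor genes (5.45%). It was found in 2.86% of the other 20-nt windows of splicing factor 3′ UTRs and in 4.51% of the common 3′ UTR peaks of all genes. Those other windows came from all splicing factor genes, including genes without a common peak, so the comparison is not within the same mRNAs. UGUUU was found in 7.01%, 5.93% and 7.20%, and the 5-mers can overlap, as they do in the HNRNPA3 bin printed above. SR peaks held UGUGU in 4.07% and hnRNP peaks in 5.86%. A match is a description of the letters and not a binding site, and a window of 20 nt does not show what lies beside it.

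Introns held a smaller part of the IP reads of SR and hnRNP genes than of all protein-coding genes. In SR genes 8.14, 4.11 and 2.48% of the listed IP reads were intronic, in hnRNP genes 8.88, 9.66 and 4.001%, and in all protein-coding genes 15.6, 15.3 and 8.42%. The SR minus hnRNP difference was negative in each sample, at -0.74 percentage points in SK-Mel-103 and -3.54 ± 2.85 (SD, n = 2) in UACC-62, little beyond the spread between replicates. The input had intronic shares of 7.78, 1.93 and 1.01% in SR and 7.11, 4.95 and 2.06% in hnRNP genes. Those of all protein-coding genes were 7.68, 4.46 and 3.02%. Summed over introns, scaled log2 IP over input was -0.24, 0.04 and 0.77 in SR genes and -0.09, 0.15 and 0.32 in hnRNP genes. In all protein-coding genes it was higher in each sample, at 0.97, 1.71 and 1.43. With bins of more than 30 IP reads only, the UACC-62 shares fell to 0.087% and 0.434%, so the intronic reads lay almost wholly in bins of few reads. SF3A and SF3B genes had 8.60, 4.69 and 6.39%.

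**Figure D5:**
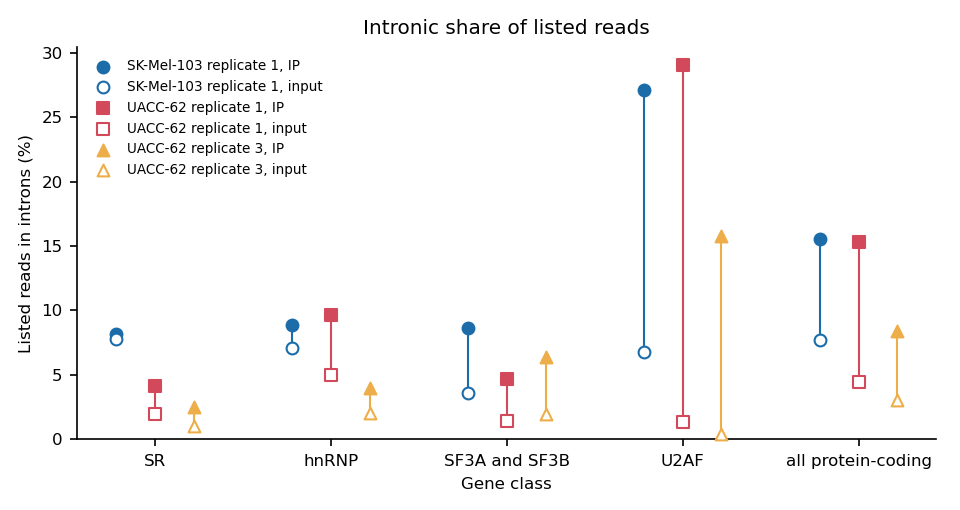
Filled symbols give the percentage of listed IP reads, and open symbols that of input reads, that fell in introns, for each gene class and sample. For IP reads, SR and hnRNP genes lie below all protein-coding genes in each sample and the U2AF class, which rests on 2 genes, lies above. The input symbols do not keep this order.

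Without a read minimum, 21 of the genes (6 SR, 11 hnRNP, 3 SF3B and U2AF2) had a bin in an intron listed in all 3 samples, against 18.0% of all genes. In 15 of them (5 SR, 8 hnRNP, SF3B3 and U2AF2) such a bin shared no base with an exon of a coding transcript. That second count was not made for all genes, and neither count was matched for abundance. The bins shown here are the one with the most reads in SRSF5, on an exon found only in transcripts not annotated as protein-coding, and one of the HNRNPK intron bins without input.
SRSF5, chr14:70237101-70237120, + strand: guagucuUGUUUuuuuuaua
HNRNPK, chr9:86589661-86589680, - strand: uuggguauaaaacaaaaugc

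The SRSF5 bin had 41, 16 and 36 IP reads over 21, 7 and 3 input reads, and the HNRNPK bin had 15, 7 and 16 IP reads and no input read in any sample. In SRSF5 all 10 common intronic bins lay on exons of nonsense-mediated decay transcripts and outside exons of protein-coding transcripts. Whether other transcripts not annotated as protein-coding share those exons was not checked. Together the 10 bins held 183, 70 and 113 IP reads over 120, 36 and 16 input reads. Intronic bins made up 43.9, 35.7 and 36.2% of the listed IP reads of SRSF5, the largest share among SR genes in UACC-62 replicate 3 and after SRSF4 and SRSF11 in SK-Mel-103.

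HNRNPH1 had the most intronic bins clear of coding-transcript exons, 30, but they held 671, 274 and 216 IP reads over 770, 328 and 120 input reads, above the input in UACC-62 replicate 3 alone. In HNRNPK, 9 bins within chr9:86589601-86590080 held 108, 138 and 100 IP reads over 21, 12 and 4 input reads, a group singled out after its values had been seen. The other 11 HNRNPK bins held 101, 85 and 62 over 61, 36 and 7. U2AF2 had 5 such bins with 26, 47 and 28 IP reads over 6, 2 and 0 input reads, and its introns as a whole held 299, 332 and 97 IP reads over 93, 25 and 1. An intronic excess of IP was general in these lists. Summed over the introns of all protein-coding genes, scaled log2 IP over input was 0.97, 1.71 and 1.43. U2AF1 had 53.0, 42.4 and 39.5% of its few listed IP reads in introns. SRSF11 carried 1797 intronic IP reads over 1827 input reads in SK-Mel-103 but 140 and 180 over 59 and 28 in UACC-62. SRSF10 had 2 common intronic bins and HNRNPUL2-BSCL2, a readthrough locus over HNRNPUL2 and BSCL2 with no protein-coding transcript, was left out of these shares.

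Other splicing genes gave the context of the pathway. Of 42 further genes, among them PTBP1, TRA2A, TRA2B, SNRPD1 and PRPF8, 18 had a common peak, against 13.2% of all genes with a listed bin. In 3′ UTRs lay 143 of their 148 common peaks (96.6%), against 84.5% for all genes. At least 1000 exonic input reads in each sample were reached by 17, and 14 of these had a common peak, against 72.6% of 1323 genes. Of the same 17, 15 were below 0 in all 3 samples, against 69.3%, and 1 was above it, against 20.1%. Of the 39 with the read minimum, 31 were below 0 in all 3 samples, against 54.9% of all genes. Above it were 6 (LUC7L, PTBP2, SF1, SNRPD1, SRPK1 and TRA2A), against 25.5%. Their medians were -0.79, -1.34 and -1.21, which is lower than those of SR genes and higher than those of SF3A and SF3B genes in each sample.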

How the data were processed

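RIP-Seq lists of 3 IP samples were used, and the 3 inputs entered through a column of those lists. The authors aligned 40-nt single-end reads to GRCh37 and called bins of 20 bp with Piranha 1.2.1 (zero-truncated Poisson regression). The submitters' processing notes name TopHat2 2.0.4, Bowtie 0.12.7 and SAMtools 0.1.16. The deposited counts are unnormalised IP reads, given for passing bins only. The p-value was deposited by the authors for each bin. The ratio deposited by the authors in the last column carries the input, with 0.01 for none, from which whole input reads were obtained by its smallest step (largest offset from a whole number 0.019). Depths are the list totals given above, reads outside passing bins are unknown, and every IP over input value is conditional on the bin having passed.

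Genes came from GENCODE 44 mapped to GRCh37, with the transcript strand taken as the reverse of the listed one. A bin centre was assigned to the first that held it of 3′ UTR, coding sequence, 5′ UTR, exon of a transcript not protein-coding, and intron. The last 2 were counted as intronic. Log2 IP over input used a pseudocount of 1 read. Windows were placed with BLAST 2.17.0. Python 3.11.15, pandas 2.3.3 and statsmodels 0.14.6 were used, and the calculation was tested on simulated data. No test was run. One intronic bin is not reported here. Named genes were the 5 highest and 3 lowest SR and hnRNP genes by their lowest sample, the 3 of each class with most common intronic bins, and all SF3A, SF3B and U2AF genes. Members of classes named beside these were chosen after their values were seen. The members and lists were chosen with earlier results of these data known.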

Additional observations from a re-analysis of the deposited data

Results flagged for a closer look

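In 4 genes the SK-Mel-103 value of log2 IP over input had the opposite sign to both UACC-62 replicates, a difference that was not tested. The share of all genes with such opposite signs was not counted, so the 4 cannot be called unusual. SRSF2 was at 0.13 in SK-Mel-103 against -0.17 and -0.30 in UACC-62. HNRNPD was at 0.12 against -0.16 and -0.20, and HNRNPH2 at 0.47 against -0.01 and -0.22. HNRNPA3 went the other way, with -0.018 against 0.32 and 0.22. Relative to the median of all genes in the same sample, all 4 genes were above it in each sample, by 0.26 to 0.75 in SK-Mel-103 and by 0.19 to 1.03 in UACC-62.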

How the results depend on the processing

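Counts of genes with a common peak were the same at a p-value under 0.01 and when an adjacent bin was allowed (28 in all, 6 SR, 18 hnRNP). Without a read minimum they were 48, 12 and 25, and with more than 100 IP reads 13, 4 and 9. Leaving out 1 UACC-62 replicate gave 28 to 34 genes in all, 6 to 10 SR and 18 to 19 hnRNP genes. Taking the strand as listed left 1 gene, 0 SR and 1 hnRNP. The 3′ UTR share of common peaks went from 86.5% to 57.7% without a read minimum, to 100% above 100 reads, to 0% of 1 peak on the listed strand, and ranged from 78.2 to 86.3% when a replicate was left out.

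In UACC-62, unscaled reads moved the SR and hnRNP medians to -0.48 and -0.55, and scaling to exonic reads moved them to -0.72 and -0.79, with their difference still 0.07. Bins above 30 reads moved the hnRNP median to -0.52 and turned the SR minus hnRNP difference to -0.53. Bins in no other gene gave -1.25 for hnRNP genes and a difference of 0.34. On the listed strand the hnRNP value was 3.30 from 1 gene, and no SR gene had the reads for a value. Without UACC-62 replicate 1 or 3 the medians ranged from -1.08 to -0.74 (SR) and from -1.10 to -0.85 (hnRNP), and their difference from 0.02 to 0.11. Unscaled reads reversed SRSF2 to 0.19 and HNRNPD to 0.25, and exonic scaling put HNRNPD at 0.0060. Both scalings add 1 constant to all genes of a sample, so genes near 0 change sign by construction. The intronic share went to 0.087% (SR) and 0.434% (hnRNP) in bins above 30 reads, to 36.6% and 40.8% on the listed strand, for SR genes to 5.91% in bins of no other gene and 1.11% clear of every exon, and ranged from 2.48 to 4.11% (SR) and 4.001 to 9.66% (hnRNP) without 1 replicate. The cause of the other changes was not tested.

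Several steps were chosen after seeing the data. They were the placement of windows, the removal of bins touching exons, and the return of HNRNPUL2-BSCL2. The removal of HNRNPA1L2, HNRNPA1L3, HNRNPCL1 and HNRNPCL2 was chosen in the same way. No paired analysis was possible because the 2 lines share only replicate number 1. Within a line each IP is set against its own input, and a test over the 3 IP and input pairs was not run, since bins were listed by their IP reads.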
